A study of Mus musculus with 6 samples.

Results

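Transcripts of 10 genes used to mark synovial sublining and progenitor fibroblasts (Thy1, Cd34, Dpp4, Pi16, Ly6a, Ly6c1, Clec3b, Sema3c, Pdgfra and Pdgfrb) were followed in arthritic mouse synovial fibroblasts (SFs) with and without amisulpride, an antipsychotic that blocks dopamine receptors. The genes were taken by name from the deposited table of 49548 genes. All 10 were found, and 8 of them passed the filter on low values, which asked for 10 or more in 3 or more of 6 libraries, as did 12614 genes of the 22775 that were detected. SFs were cultured from ankle joints of 8-week-old mice that carry a human TNF transgene (hTNFtg) on a mixed CBA and C57BL/6J background, and cells bearing CD45 were depleted at passage 1. One group of 3 libraries came from cells left without treatment and the other group of 3 from cells given 500 μM amisulpride for 48 hours. Both groups carry the transgene, so no library represents a joint without arthritis. The labels call the first group untreated although the methods mention a vehicle, and they do not say whether a replicate number stands for 1 mouse or for pooled mice. In the plots and sentences that follow, values are normalised counts, meaning reads near the 3′ end of a transcript scaled with a single factor for each library and rounded to whole numbers.

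The synovium has a thin lining of fibroblasts that secrete lubricin, the product of Prg4, and a deeper sublining of fibroblasts that carry Thy1 around blood vessels and in loose connective tissue. Fibroblasts positive for Pi16, Dpp4, Cd34 and Ly6a are known from many tissues as an adventitial, progenitor-like population that can give rise to more specialised fibroblasts. Pdgfra and Pdgfrb encode receptor tyrosine kinases for platelet-derived growth factors and are broadly used to identify mesenchymal cells, Pdgfrb also on pericytes. In RNA from bulk cultures, fewer cells of a type and less RNA per cell cannot be told apart.

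Library totals were 3832980 to 4504242 normalised counts, and the depth inferred from the spacing of low values was approximately 2.52 to 4.71 M reads, with the value of untreated replicate 1 (4.03 M) uncertain. Amisulpride replicate 3 was the shallowest library and stood apart from the others: on the first principal component, which held 37.1% of the variance, it lay at 73.9 while the other 5 libraries lay between -38.2 and 10.4. On the second component (26.7% of the variance) amisulpride replicate 2 stood apart, at 56.5 while the other 5 libraries lay between -27.8 and 22.7. Results that rest on amisulpride replicate 3 are given with and without it. At the thresholds of the study (a log2 fold change beyond 1 in size with an unadjusted p-value under 0.05), limma called 2.69% of the 12614 genes tested higher and 3.01% lower in treated cells, and 0.285% (36 genes) had an adjusted p-value under 0.05 in either direction. With the replicate number as a block, 263 genes had such an adjusted p-value. Without amisulpride replicate 3 the thresholds of the study called 363 of 12382 genes tested higher and 411 lower.

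Of the 8 markers tested, Ly6c1 and Sema3c rose past the study thresholds and none fell, beside the 2.69% of all genes that were called higher. Without the replicate block none of the 8 had an adjusted p-value under 0.05 by limma, beside 0.285% of all genes. An unadjusted p-value under 0.05 was found for 2, beside 10.9% of all genes. With the replicate block in limma, 2 had an adjusted p-value under 0.05, Ly6c1 (0.0196) and Sema3c (0.0168), beside 263 of 12614 genes tested. The sign of the change was positive for 6 of the 8, all except the PDGF receptors, and the median log2 fold change was 0.57 against 0.0016 over all genes tested. Every treated value lay above every untreated value for Sema3c alone, beside 7.80% of all genes. Without amisulpride replicate 3 the thresholds called 4 of the 8 markers higher, namely Ly6a, Ly6c1, Clec3b and Sema3c, beside 363 of 12382 genes tested. The median of the markers was then 1.01, against -0.012 over all genes tested. Clec3b is included in these counts and medians. It passed the filter through untreated replicate 2 and amisulpride replicates 1 and 2, so its place among the tested markers rests on treated libraries where it was high. The changes are on the scale of log2(normalised count + 1), which understates those of low genes.

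**Figure D1:**
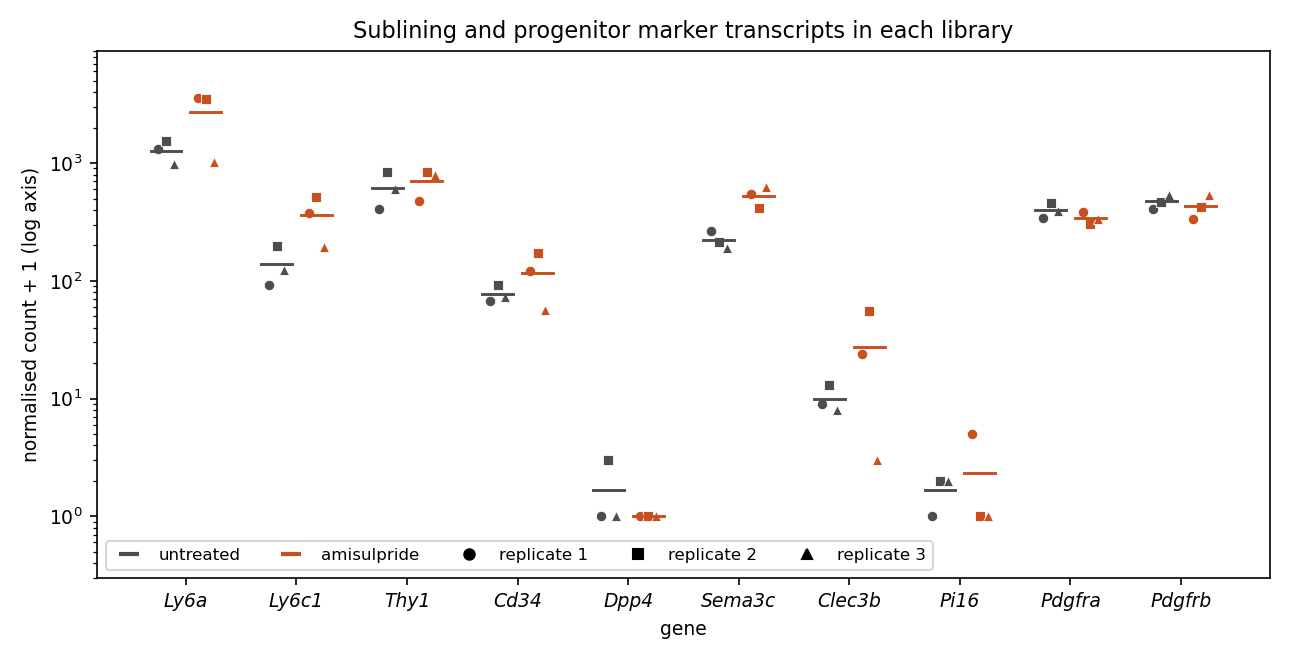
Normalised counts plus 1 of the 10 marker genes, on a log axis, in each untreated (grey) and amisulpride (orange) library, with symbols for replicate numbers and a horizontal line at each group mean. The treated Sema3c values (415 to 628) all lie above the untreated ones (189 to 263), whereas amisulpride replicate 3 (triangle) lies far under the other treated libraries for Ly6a, Ly6c1, Cd34 and Clec3b.

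Ly6a and Ly6c1 encode small glycosylphosphatidylinositol-anchored surface proteins of the Ly6 family. Ly6a, known as Sca-1, marks progenitor-like fibroblasts and haematopoietic stem cells, and Ly6c1 encodes a form of the Ly6C antigen, which is also found on monocytes and endothelial cells. Ly6a (ENSMUSG00000075602, mm10 chr15:74994877-74998031, minus strand) and Ly6c1 (ENSMUSG00000079018, mm10 chr15:75044018-75048830, minus strand) lie in a cluster of related genes on chromosome 15.

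Sema3c also rose past the study thresholds, but its promoter is not printed. The promoter of Ly6c1 is shown because its transcript rose past them. RefSeq gives 2 start sites for it, and the 250 bases before the one farther upstream, at chr15:75048838-75049087 (GRCm38.p6, the assembly called mm10) on the minus strand, lie upstream of every annotated Ly6c1 transcript. Motifs were searched on both strands. Capitals mark the letters TATAAA, first base at position -143 from the start site, and CCAAT, first base at position -95.
Ly6c1: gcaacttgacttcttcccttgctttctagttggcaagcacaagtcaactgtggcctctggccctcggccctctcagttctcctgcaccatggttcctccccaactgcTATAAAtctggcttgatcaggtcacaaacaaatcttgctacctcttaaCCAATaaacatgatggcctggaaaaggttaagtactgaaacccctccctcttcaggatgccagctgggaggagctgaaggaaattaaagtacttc
The letters TATAAA occur in 12.4% and CCAAT in 33.9% of 32851 RefSeq windows of the same length. A match describes the letters and not a binding site. The window holds neither TTCNNNGAA, a palindromic word known for STAT factors, nor the core of the interferon response element (ISRE), which occur in 7.02% and 2.98% of all windows, and it holds no GGGCGG, which 32.7% do.

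Ly6c1 stood at 91, 197 and 123 normalised counts in untreated replicates 1, 2 and 3 and at 374, 518 and 193 in the amisulpride replicates. The groups touched at their edges, since amisulpride replicate 3 (193) lay just under untreated replicate 2 (197), while each treated library lay above the untreated library of the same number. The mean went from 137 ± 54.4 to 362 ± 163 (SD, n = 3 each), or 1.35 ± 0.39 (SE) as log2 fold change, with a 95% confidence interval of 0.51 to 2.20, an unadjusted p-value of 0.00479 and an adjusted p-value of 0.202 by limma. With the replicate number as a block, the adjusted p-value of Ly6c1 was 0.0196. Leaving out amisulpride replicate 3, the log2 fold change of Ly6c1 was 1.75 ± 0.32 and the adjusted p-value 0.0240.

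Ly6a was the most abundant of the 10 markers, at 1315, 1533 and 978 normalised counts in untreated cells and 3600, 3523 and 1029 in treated cells. Amisulpride replicates 1 and 2 lay far above every untreated library, and replicate 3 lay within the untreated range. The mean was 1275 ± 280 in untreated and 2717 ± 1463 in treated cells. The log2 fold change of 0.91 ± 0.43 (95% confidence interval -0.05 to 1.86, unadjusted p = 0.0600, adjusted p = 0.488, limma) did not pass the thresholds. With the replicate number as a block the unadjusted p-value of Ly6a was 0.00652 and the adjusted p-value 0.128, still under the fold threshold. Without amisulpride replicate 3 the log2 fold change was 1.51 ± 0.26 with an adjusted p-value of 0.0160, past the study thresholds. Ly6a also passed with library weights in limma (1.30, unadjusted p = 0.00141, adjusted p = 0.0679). These weights were estimated from the spread of the same values, and amisulpride replicate 3 had the lowest (0.369). That fit is therefore close to leaving this library out. Without amisulpride replicate 1 or 2 the log2 fold change of Ly6a was 0.60 or 0.62.

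The division of reads between Ly6a and Ly6c1 is uncertain. Of the 25-base words in the last 300 bases of annotated Ly6a transcripts, 39.1% also occur in other genes, among them Ly6c1, Ly6i and Ly6c2, and for Ly6c1 the share is 52.3%, most of it with Ly6c2. Ly6c2, a near-identical gene of the cluster that also encodes Ly6C, was at 1, 2 and 1 normalised counts in untreated and 9, 16 and 4 in treated libraries. These groups did not overlap, but the untreated values were under the 3-read floors of 2.50 to 3.16 normalised counts. The value of 4 in amisulpride replicate 3 was also under that library's floor of 5.37, and the gene did not pass the filter. Of the 8 other Ly6 genes of the cluster examined, Ly6e, a widely expressed member, was the only one tested, with a log2 fold change of -0.29 ± 0.25, while Ly6g and Ly6h were at 0 in all 6 libraries.

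Thy1 (ENSMUSG00000032011, mm10 chr9:44043384-44048579, plus strand) encodes CD90, the surface glycoprotein that separates sublining from lining fibroblasts. Its values were 405, 838 and 605 normalised counts in untreated and 480, 838 and 796 in treated libraries. The ranges overlapped almost entirely, and replicate 2 had the same value in both groups. The mean was 616.0 ± 217 and 704.7 ± 196, and the log2 fold change of 0.21 ± 0.32 (adjusted p = 0.845, limma) had a 95% confidence interval of -0.49 to 0.92, so a change within that interval was not detectable. The sign of the Thy1 difference depended on untreated replicate 1, without which it was -0.058. With amisulpride replicate 3 left out it was 0.10.

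Cd34 (ENSMUSG00000016494, mm10 chr1:194938819-194961279, plus strand) encodes a sialomucin of progenitor and endothelial cells. It stood at 67, 91 and 72 normalised counts in untreated and 119, 171 and 55 in treated libraries. Amisulpride replicates 1 and 2 were above all untreated libraries, and replicate 3 was the lowest of the 6. The log2 fold change was 0.45 ± 0.39 (adjusted p = 0.725, limma), and without amisulpride replicate 3 it was 0.90 ± 0.29 (unadjusted p = 0.00908, adjusted p = 0.198), under the fold threshold of the study. Without amisulpride replicate 1 or 2 the change of Cd34 was 0.35 or 0.09. An antisense gene, Gm16897, overlaps Cd34, and whether reads were counted by strand is not given in the sources used here.

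Dpp4 (ENSMUSG00000035000, mm10 chr2:62330073-62412231, minus strand) encodes the surface protease CD26, a defining marker of adventitial progenitor fibroblasts. It was at 0, 2 and 0 normalised counts in untreated libraries and at 0 in all treated libraries. Each value was under the floor of 3 reads, which was 2.50 to 5.37 normalised counts, so Dpp4 was not detectable at this depth in either group. Pi16 (ENSMUSG00000024011, chromosome 17), which encodes a secreted peptidase inhibitor and gives the same progenitor population its name, was at 0, 1 and 1 counts in untreated and 4, 0 and 0 in treated libraries. The 4 counts of amisulpride replicate 1 exceeded that library's floor of 2.69. Neither gene passed the filter, so the defining markers of the Pi16 and Dpp4 positive progenitor population were at or near 0 in these cultures while Ly6a, Cd34 and Ly6c1 were not.

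Among the family of Dpp4, which also holds fibroblast activation protein (Fap), 5 of the 7 other genes examined were tested and none passed the study thresholds, with a median log2 fold change of 0.17. Dpp3, a cytosolic peptidase and the most abundant of these, stood at 146, 139 and 105 normalised counts in untreated and 110, 138 and 202 in treated libraries, a log2 fold change of 0.17 ± 0.29 that turned to -0.062 without amisulpride replicate 3. Dpp6 was at 0 in all 6 libraries.

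Sema3c (ENSMUSG00000028780, mm10 chr5:17574281-17730268, plus strand) encodes a secreted class 3 semaphorin, a guidance factor that acts through neuropilin and plexin receptors. It stood at 263, 212 and 189 normalised counts in untreated and 545, 415 and 628 in treated libraries. The groups did not overlap, and in contrast to the other markers that were higher, amisulpride replicate 3 held the highest value. The mean rose from 221 ± 37.9 to 529 ± 107 (SD, n = 3 each), a log2 fold change of 1.25 ± 0.26 (95% confidence interval 0.68 to 1.81, unadjusted p = 0.000478, adjusted p = 0.0761, limma). With the replicate number as a block the adjusted p-value of Sema3c was 0.0168. Leaving out amisulpride replicate 3 gave 1.11 on the log2 scale (adjusted p = 0.0685).

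Clec3b (ENSMUSG00000025784, mm10 chr9:123150946-123157432, plus strand) encodes tetranectin, a secreted plasminogen-binding lectin of progenitor-like fibroblasts. It was low, at 8, 12 and 7 normalised counts in untreated and 23, 54 and 2 in treated libraries. The value of 2 in amisulpride replicate 3 lay under its floor of 5.37, whereas the other treated libraries were above every untreated library. The log2 fold change was 0.69 ± 0.89 (adjusted p = 0.816, limma). Clec3b passed the study thresholds once amisulpride replicate 3 was left out, at 1.89 ± 0.53 (unadjusted p = 0.00365, adjusted p = 0.129). It reached 10 in only 3 libraries, untreated replicate 2 and amisulpride replicates 1 and 2, and failed the filter when any of these was left out. Its test, and this call, thus rest on the treated libraries where it was high.

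Pdgfra (ENSMUSG00000029231, mm10 chr5:75152292-75198215, plus strand) stood at 340, 460 and 390 normalised counts in untreated and 383, 301 and 336 in treated libraries. Pdgfrb (ENSMUSG00000024620, mm10 chr18:61045150-61085061, plus strand) stood at 409, 469 and 538 and at 334, 423 and 540. The groups overlapped for both receptors. The log2 fold change was -0.22 ± 0.24 for Pdgfra (95% confidence interval -0.74 to 0.31, adjusted p = 0.784) and -0.14 ± 0.26 for Pdgfrb (-0.71 to 0.42, adjusted p = 0.868) by limma, intervals that exclude a change of 1 log2 unit in either direction. The sign for Pdgfrb depended on amisulpride replicate 1, without which it was 0.027, and leaving out amisulpride replicate 3 gave -0.32. Antisense genes Gm42802 and Gm42803 overlap Pdgfra.

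**Figure D2:**
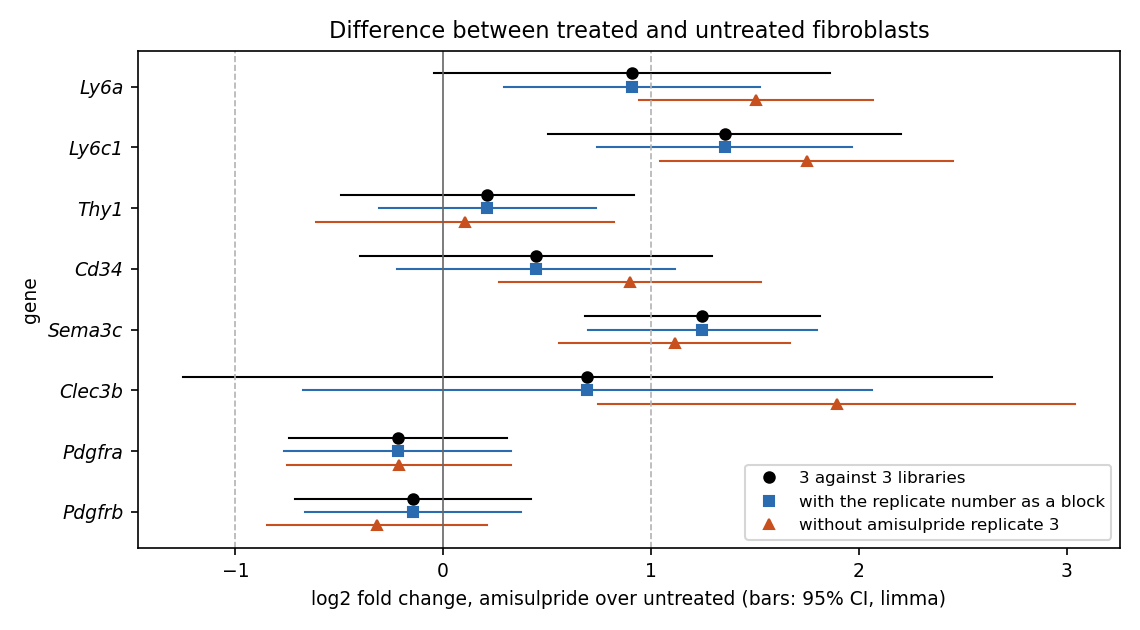
Log2 fold change of amisulpride over untreated libraries for the 8 markers tested by limma, with 95% confidence intervals, from all 6 libraries (black), with the replicate number as a block (blue) and without amisulpride replicate 3 (orange); dashed lines mark 1 log2 unit. Ly6c1 (1.35) and Sema3c (1.25) lie to the right of the dashed line in all 3 fits, and Ly6a (0.91) and Clec3b (0.69) cross it, of these fits, only without amisulpride replicate 3.

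The treated libraries were not alike. In amisulpride replicates 1 and 2 the difference from the untreated mean was 1.52 and 1.49 log2 units for Ly6a, and in replicate 3 it was -0.28. For Clec3b the same differences were 1.29, 2.49 and -1.71. Ly6c1 was higher than the untreated mean in all 3 treated libraries, by 1.51, 1.98 and 0.56. Sema3c was higher by 1.31, 0.92 and 1.51, with replicate 3 at the top. Thus replicate 3 was the lowest treated library for Ly6a, Ly6c1, Cd34 and Clec3b and the highest for Sema3c. The part of its lower depth in these values was not tested.

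**Figure D3:**
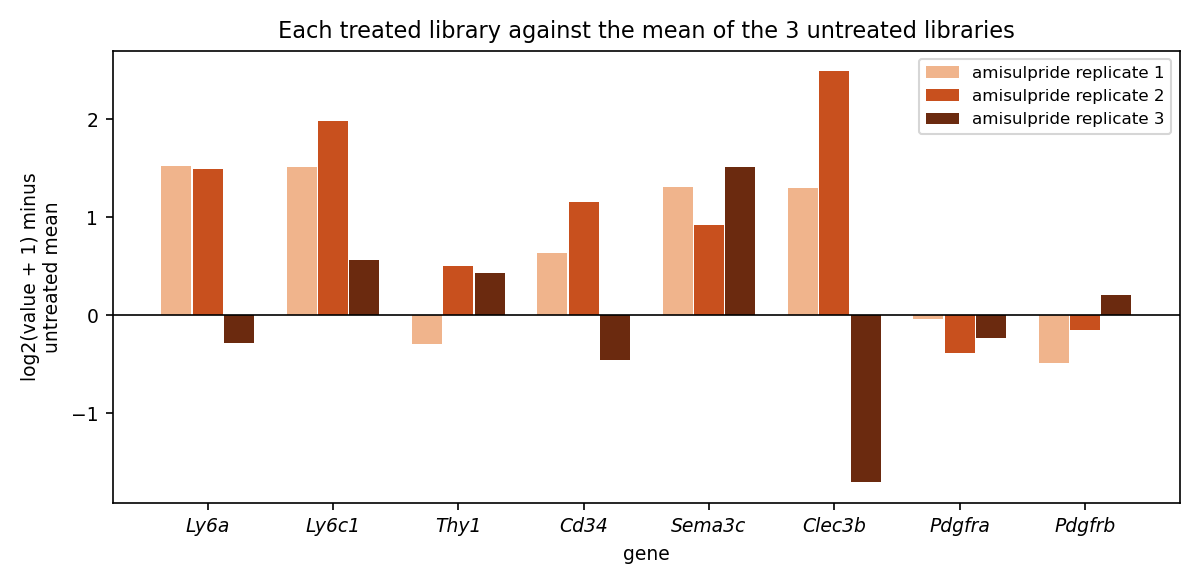
Difference of log2(normalised count + 1) between each amisulpride library and the mean of the 3 untreated libraries for the 8 markers tested, one bar per library. For Ly6a the bars stand at 1.52, 1.49 and -0.28, whereas for Sema3c all 3 are positive (1.31, 0.92 and 1.51).

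The order of the markers by abundance can be given only roughly, because a 3′ kit yields about 1 read region per transcript and values were not divided by length. In untreated cells the order of mean normalised counts ran Ly6a, Thy1, Pdgfrb, Pdgfra, Sema3c, Ly6c1, Cd34 and Clec3b, with Dpp4 and Pi16 near 0. The ranges of the neighbours Thy1 and Pdgfrb, Pdgfrb and Pdgfra, Sema3c and Ly6c1, and Ly6c1 and Cd34 overlapped. By the mean over all 6 libraries, treated ones included, 1.61% of the genes detected stood as high as Ly6a, 5.19% as high as Thy1, 25.3% as high as Cd34 and 49.0% as high as Clec3b. In treated cells Sema3c stood in the place after Thy1, with a range that overlapped those of Thy1 and Pdgfrb.

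A sublining and a lining marker were set against each other in the log2 ratio of Thy1 to Prg4 within each library, which does not depend on scaling between libraries. The ratio was -1.17, -0.04 and -0.28 in untreated and 0.17, 1.46 and 0.29 in treated libraries. Every treated ratio lay above every untreated ratio. The means were -0.50 ± 0.60 and 0.64 ± 0.71 (SD, n = 3 each), a difference of 1.13, with an exact permutation p of 0.1 (two-sided), the smallest that 3 against 3 libraries can give, and 0.2 after Benjamini-Hochberg adjustment over the 2 ratios tested. The difference within replicates 1, 2 and 3 was 1.35, 1.50 and 0.56. Prg4 itself, lubricin, was at 915, 859 and 733 normalised counts in untreated and 426, 304 and 653 in treated libraries, a log2 fold change of -0.92 ± 0.29 (adjusted p = 0.251, limma). Without amisulpride replicate 3 the change of Prg4 was -1.21 with an adjusted p-value of 0.0424 and the ratio differed by 1.31. Leaving out amisulpride replicate 2, whose ratio was the highest, lowered the difference of the ratio to 0.72, and leaving out untreated replicate 1, whose ratio was the lowest, to 0.80. Prg4 did not stand for its list: of the 5 lining markers tested, Tspan15 (log2 fold change 0.44), Cd55 (0.18) and Vcam1 (0.18) had the opposite sign, none of them past the thresholds.

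The log2 ratio of Pdgfra to Pdgfrb was -0.27, -0.03 and -0.46 in untreated and 0.20, -0.49 and -0.68 in treated libraries. The groups overlapped, and the difference of -0.07 was within the spread between libraries (exact permutation p = 0.9, two-sided).

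**Figure D4:**
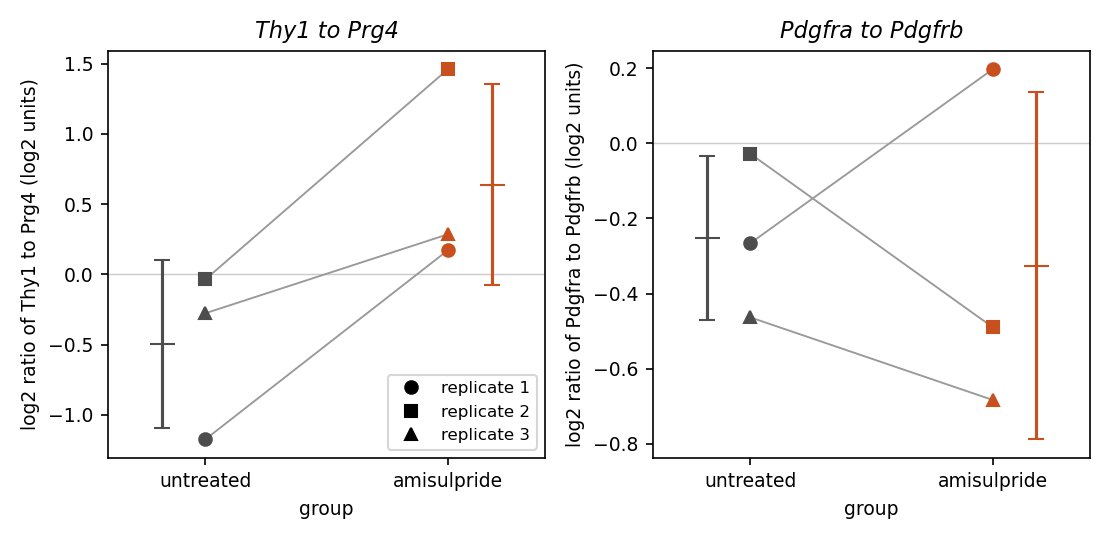
Log2 ratios of Thy1 to Prg4 (left) and of Pdgfra to Pdgfrb (right) in each library, lines joining libraries with the same replicate number, with the mean and SD of each group at the side. The treated Thy1 to Prg4 ratios (0.17 to 1.46) lie above the untreated ones (-1.17 to -0.04), and the Pdgfra to Pdgfrb ratios overlap.

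Of 20 other sublining and progenitor markers, 17 were tested, of which Limch1 and Ackr3 rose and Emilin2 and Penk fell past the study thresholds, with a median log2 fold change of 0.29. Limch1, which encodes an actin-associated protein, went from 7, 11 and 5 normalised counts to 32, 40 and 34, with no overlap. Its log2 fold change was 2.12 ± 0.45 (adjusted p = 0.0764, and 0.0232 with the replicate block, limma). Limch1 passed the filter through the treated libraries, where it was high, as only untreated replicate 2 reached 10 among the untreated ones. Ackr3, a scavenging receptor for CXCL12, had a log2 fold change of 1.03 ± 0.33, which went to 0.70 when untreated replicate 3 was left out and to 0.89 when amisulpride replicate 1 was, both under the fold threshold. Cxcl12, the most abundant of these markers, stood at 5805, 10291 and 4294 counts in untreated and 11669, 12254 and 6143 in treated libraries, a log2 fold change of 0.59 ± 0.39 that did not pass. With the replicate block the collagen gene Col15a1 also passed as higher (1.28, unadjusted p = 0.0410, against 0.143 without the block).
Penk, the precursor of enkephalin peptides, had a log2 fold change of -1.60 ± 0.63 (adjusted p = 0.367, and 0.00452 with the replicate block), which was -0.89 without amisulpride replicate 3. Its fold change was -0.98 without untreated replicate 2, and its unadjusted p-value was 0.0587 without untreated replicate 1. Emilin2, an extracellular matrix glycoprotein, had -1.02 ± 0.33, and lost its call without untreated replicate 1 (-0.81), amisulpride replicate 1 (-0.98) or amisulpride replicate 2 (-0.74), while it was -1.34 without amisulpride replicate 3.

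Of 8 lining markers, 5 were tested and none passed, with a median log2 fold change of 0.18. With amisulpride replicate 3 left out 2 of them, Prg4 and Hbegf, passed as lower, and the median was 0.65. Prg4 also passed as lower with library weights, which count amisulpride replicate 3 least (-1.07, unadjusted p = 0.000818, limma). The same held without untreated replicate 3 (-1.01, unadjusted p = 0.0175, limma). Vcam1, an adhesion molecule and the most abundant of these, had a log2 fold change of 0.18 ± 0.38. Of 10 general fibroblast markers all were tested and 1 fell, S100a4, a calcium-binding protein, at -1.31 ± 0.32 (adjusted p = 0.118, and 0.0459 with the replicate block, limma), while the most abundant, Col1a1, which encodes the main fibrillar collagen, had 0.49 ± 0.40. With the replicate block Lum, which encodes the matrix proteoglycan lumican, also passed as lower (-1.07, unadjusted p = 0.00149, against 0.0901 without the block), so that 2 of the 10 fell.

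Ligands and receptors that pair with the markers were also examined, in short lists that were described and not tested. Of all genes tested, 2.69% were called higher and 3.01% lower at the study thresholds. Of 4 PDGF ligand genes, all tested, Pdgfc fell with a log2 fold change of -1.10 ± 0.39 (unadjusted p = 0.0160), which became -0.96 when untreated replicate 3 was left out and -0.71 when amisulpride replicate 2 was. Pdgfa, the most abundant ligand gene, had a log2 fold change of -0.31 ± 0.27. Of 13 class 3 semaphorins and their receptors, 10 were tested, and the median was -0.26. Past the study thresholds 1 rose and 1 fell, and 4 of the 10 had an unadjusted p-value under 0.05 by limma, beside 10.9% of all genes. Sema3d, another secreted semaphorin, rose with a log2 fold change of 1.25 ± 0.40, which was 0.92 without amisulpride replicate 1. Plxnd1, a plexin receptor, fell by 1.20 on the log2 scale, with an unadjusted p-value of 0.0867 without untreated replicate 1 and 0.0634 without untreated replicate 3. Nrp2, a neuropilin and the most abundant of this group, had -0.60 ± 0.23, under the fold threshold.

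Markers of other cells that the cultures could hold were examined because Ly6a, Ly6c1, Cd34 and Pdgfrb are not restricted to fibroblasts. Of 8 endothelial markers only Egfl7 was tested, and Cdh5 and Tie1, which define endothelium, were at 0 in all 6 libraries. The summed endothelial list was 77 to 98 normalised counts in untreated and 27 to 67 in treated libraries, but nearly all of it was Egfl7, a secreted factor, at 66, 84 and 78 counts in untreated and 50, 59 and 25 in treated libraries. The other 7 genes were at 12 or fewer in each library, and Emcn reached 10 in amisulpride replicate 1 alone. Of 8 leukocyte markers 6 were tested, with a median log2 fold change of -0.14. Csf1r, the receptor of macrophage colony-stimulating factor, fell with -1.01 ± 0.46 (unadjusted p = 0.0486) and did not keep this call when any library other than amisulpride replicate 3 was left out, with values from -1.15 to -0.53. Its value was -1.57 without amisulpride replicate 3, where Adgre1, which encodes a surface antigen of macrophages, passed as higher (1.04). With the replicate block Ptprc, which encodes CD45, also passed as lower (-1.16, unadjusted p = 0.0360, against 0.104 without the block). Hbegf, Adgre1, Tspan15, Cd55, Emcn, Lum, Col15a1 and Ptprc were named after their values were seen. Lyz2, a lysozyme of macrophages and the most abundant of this list, stood at 3046, 1733 and 2188 counts in untreated and 3287, 1879 and 1394 in treated libraries, whereas Cd3e and Cd79a, of T and B cells, were at 0. The summed leukocyte list was 2004 to 3515 in untreated and 1825 to 3671 in treated libraries, so macrophage transcripts were present in both groups after the depletion. Their part in the values of Ly6a and Ly6c1 was not tested.
Of 8 mural cell markers, 3 were tested. Mcam, an adhesion molecule of pericytes and endothelium, fell with a log2 fold change of -1.37 ± 0.29 (adjusted p = 0.0764, and 0.0191 with the replicate block, limma), and Notch3, a receptor of mural cells with the highest mean of this list over all 6 libraries, though under Mcam in the mean of the untreated ones, had -0.08 ± 0.44. The summed mural list was 254 to 400 in untreated and 192 to 275 in treated libraries.

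**Figure D5:**
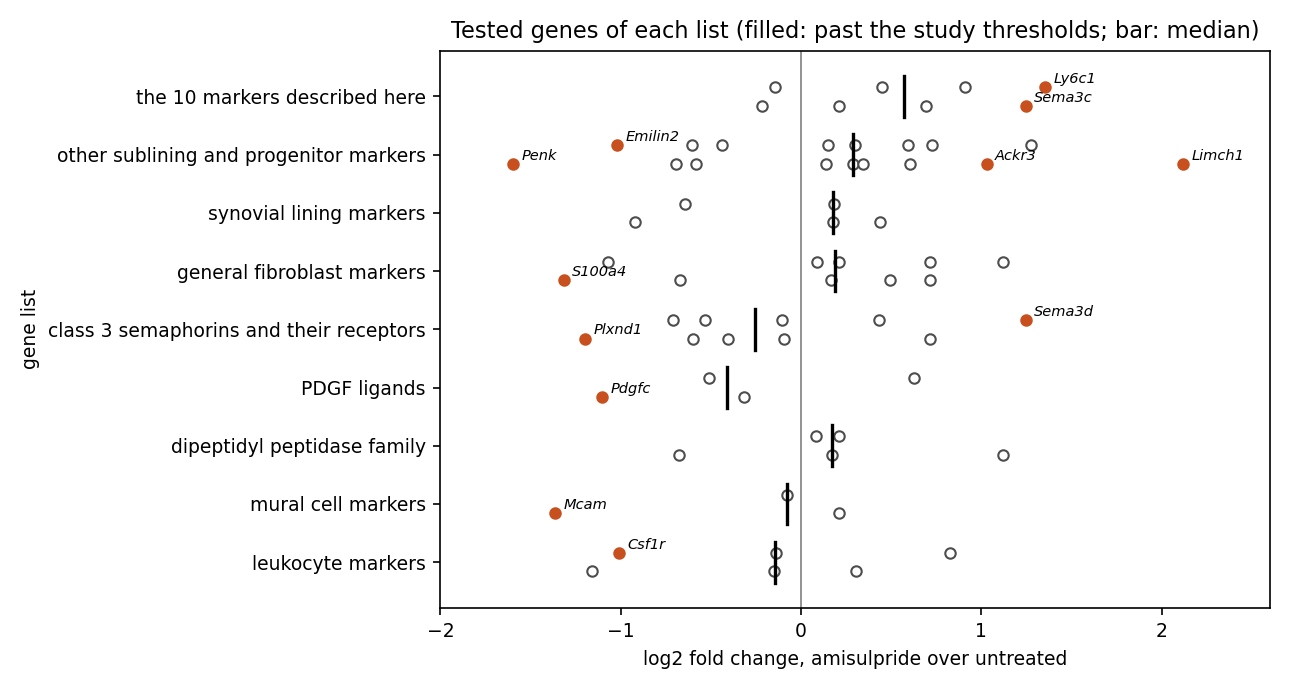
Log2 fold changes of the tested genes of each list, one circle per gene, filled and named where past the study thresholds, with a bar at the list's median. The 10 markers described here have a median of 0.57, against 0.29 for the other sublining and progenitor markers and 0.18 for the lining markers.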

How the data were processed

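3′ mRNA libraries (QuantSeq kit, Ion Proton) of 3 untreated and 3 amisulpride-treated cultures, which the methods call biological replicates, were compared. P-values measure the spread between these samples. The authors mapped reads to mm10 with TopHat2 and Bowtie2, counted them per gene with GenomicRanges and normalised them with DESeq through metaseqr (tools and builds also per the submitters' processing notes, versions not given in the sources used here). The deposited values are a score: read counts scaled by the authors with a single factor for each library and rounded to whole numbers. 12 other columns of per-library values, and columns with the authors' own fold changes, p-values and means, were not used.

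Values were transformed to log2(normalised count + 1), and genes with at least 10 in at least 3 of 6 libraries were fitted with limma 3.58.1 (R 4.3.3) with a trended prior (7.31 prior degrees of freedom), two-sided, with Benjamini-Hochberg adjustment over all 12614 genes. Since deposited values were not counts, no count model was used. The fit was tested on simulated data. The 13 alternatives were a pseudocount of 5, no filter, quantile and TMM scaling, a replicate block, library weights, no variance trend and leaving out each library in turn. Ratios were tested by exact permutation over libraries (numpy 2.4.6). Floors are the normalised value of 3 reads and cover counting error only, as reads had no molecular identifiers. SDs, SEs and confidence intervals come from the spread between libraries. Depths were estimated from the spacing of low values.

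Replicate numbers come from the sample labels. Deviations from group means correlated at 0.229, 0.240 and 0.201 between same-numbered libraries and at -0.15 to -0.08 otherwise. Same-numbered libraries thus went together, and the replicate block treats the numbers as pairs. The main fit and the permutation of the ratios did not use this pairing, so their p-values ignore it.

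Member coordinates equal those of the reference annotation except for Pi16, whose coordinates are not printed. The named genes are the 10 markers, and of each other list those past the study thresholds and the most abundant one, with Prg4 for the ratio and genes sharing sequence with a marker. The markers and lists were chosen with earlier results of these data known.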

Additional observations from a re-analysis of the deposited data

How the results depend on the processing

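Ly6c1 and Sema3c passed the study thresholds in all 13 alternatives tried. Markers past the thresholds (2) numbered 2 to 4 when single libraries were left out, with 4 without amisulpride replicate 3. They numbered 3 with library weights, which count amisulpride replicate 3 least, where Ly6a was added. Markers with an adjusted p-value under 0.05 (0) numbered 2 with the replicate block, 2 with library weights and 0 to 2 when single libraries were left out. Over all genes, 719 passed the thresholds, and 1313 without a filter. By adjusted p-value, 36 genes were called, 57 with a pseudocount of 5, 57 without a filter, 66 after quantile normalisation, 263 with the replicate block, 195 with library weights and 0 to 120 with single libraries left out. The count was 0 without untreated replicate 2 or 3, where limma gave 1083 and 911 unadjusted p-values under 0.05. Leaving out untreated replicate 1 gave 1, and leaving out amisulpride replicates 1, 2 and 3 gave 17, 6 and 120. The cause was not tested. Among listed genes, the replicate block changed no call beyond those printed beside their results.

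Leaving out single libraries turned the sign of small changes: Thy1 ranged from -0.058 to 0.47, Pdgfrb from -0.32 to 0.027, Vcam1 from -0.10 to 0.65, Notch3 from -0.61 to 0.29, Lyz2 from -0.48 to 0.14 (and 0.0934 with library weights), Dpp3 from -0.062 to 0.37, and the log2 ratio of Pdgfra to Pdgfrb from -0.33 to 0.11. The Thy1 to Prg4 difference ranged from 0.72 to 1.37. Of 101 values of the markers under alternatives, 96 kept their call and direction, 3 gained a call and 2 changed sign. Clec3b adds no value without untreated replicate 2, amisulpride replicate 1 or amisulpride replicate 2, where it failed the filter. Depth limits Dpp4 and Pi16, whose values lie near the floor. It also limits Clec3b, which was low in untreated libraries and under the floor in amisulpride replicate 3. With 3 libraries a group, the permutation p-values of the ratios cannot go under 0.1.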
